A study of Mus musculus with 9 samples.

Results

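The 13 messenger RNAs transcribed from the mouse mitochondrial genome were followed through midbrain RNA sequencing of a toxin model of Parkinson's disease. They were taken as every gene of the deposited table whose name begins with mt-, which gave 13 of 28991 genes. All 13 encode subunits of the respiratory chain or of ATP synthase: 7 belong to complex I, 1 to complex III, 3 to complex IV and 2 to complex V. No mitochondrial ribosomal or transfer RNA was among the genes with such a name, so none was analysed here.

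The mice were C57BL/6, with 3 animals in each of 3 groups, and the sampled tissue was labelled mesencephalon. The MPTP+PF4 mice received MPTP by intraperitoneal injection for 7 days together with intravenous PF4 every 3 days. The MPTP mice received the same toxin course without PF4, and the Control mice received saline. Age and sex were not given, and no label names a PF4 group without MPTP. MPTP is a pro-toxin whose metabolite inhibits complex I, and PF4 is a chemokine released by platelets.

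Mammalian mitochondrial DNA is transcribed from both strands as long precursors, which are cut at the transfer RNAs that lie between most of the reading frames. Most messengers come from the heavy-strand precursor, and mt-Nd6 alone among the protein-coding genes comes from the light-strand one. Because the genes share precursors, differences in the level of mature messengers from 1 precursor are usually ascribed to processing and stability. The messengers then carry short poly(A) tails, whereas the human counterpart of mt-Nd6 is known to lack a stable one.

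In GENCODE's GRCm38 annotation, 12 members lay on the + strand of the mitochondrial chromosome and mt-Nd6 on the − strand. The build named in the submitters' processing notes is mm9, so these positions came only from matching gene identifiers and nothing was converted. The reading frames are packed so tightly that neighbours share bases, and these stretches are shown because reads over them belong to both genes. The end of mt-Atp8 (chrM:7910-7969, + strand, 5′ to 3′) holds 43 bases, in capitals, that are also the start of mt-Atp6.
mt-Atp8 end: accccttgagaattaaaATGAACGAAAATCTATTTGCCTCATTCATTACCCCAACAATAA
The end of mt-Nd4l (chrM:10144-10173, + strand) shares 7 bases, in capitals, with the start of mt-Nd4.
mt-Nd4l end: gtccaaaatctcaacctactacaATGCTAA
Each of these pairs is carried on a single mature messenger in mammals, so the level per length of its members offers a comparison within 1 molecule. The ends of mt-Nd5 (chrM:13536-13565, + strand) and mt-Nd6 (chrM:13552-13581, − strand) lie opposite each other over 14 bases, in capitals, each written 5′ to 3′ on its own strand.
mt-Nd5 end: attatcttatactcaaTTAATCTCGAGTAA
mt-Nd6 end: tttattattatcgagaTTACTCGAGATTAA
No source used here gives the strand setting of the counting. Without strand, reads of mt-Nd5, mt-Nd6 and any antisense precursor over the same bases cannot be told apart.

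A further 3 messengers ended 1 base past their last whole codon, shown here as the capital T. In mammals the poly(A) tail completes the stop codon of such messengers.
mt-Co3 end (chrM:9361-9390, + strand): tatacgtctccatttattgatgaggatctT
mt-Nd4 end (chrM:11515-11544, + strand): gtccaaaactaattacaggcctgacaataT
mt-Cytb end (chrM:15259-15288, + strand): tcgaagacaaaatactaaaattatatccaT
Base composition separated mt-Nd6 from the rest. Its sense strand held 5.97% C and 28.1% G, whereas the other 12 messengers held 22.1 to 30.0% C and 5.88 to 16.1% G.

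Library totals ran from 32216850 to 36039211 counts, and single members held between 9875 and 1527989 counts per library, so counting error was small beside the spread between animals. Several libraries differed from the others in ways that their group did not explain. The dopamine transporter gene Slc6a3, a marker of midbrain dopamine neurons, was at 102 CPM (read counts scaled to library size, with TMM factors) in MPTP+PF4 2, and at 574 and 526 CPM in the Control libraries 2 and 3. In the other 6 libraries, Control 1 included, it lay between 0.055 and 0.957 CPM, and the striatal receptor gene Drd1 ran the other way, with 4.04 to 7.73 CPM where Slc6a3 was high and 44.5 to 398 CPM where it was low. A defining marker of the labelled tissue was thus near 0 in 6 of 9 libraries. The summed haemoglobin genes reached 83.0 to 403 CPM in MPTP+PF4, 49.3 to 64.3 CPM in MPTP and 212 to 6575 CPM in Control libraries. The dependence of expression on GC content was also library-specific, at −0.32 log2 units per 10% GC in MPTP+PF4 3, 0.34 and 0.28 in Controls 2 and 3, and −0.08 to −0.04 in the rest. Per doubling of transcript length, the trend was −0.31 and −0.12 log2 units in Controls 2 and 3 and −0.01 to 0.15 in the other libraries. The members themselves were AT-rich, at 31.9 to 41.1% GC beside a median of 49.8% over the genes tested. What part the tissue content or the GC and length trends had in the differences below was not tested beyond the values printed beside them.

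The mitochondrial messengers took a large and variable part of every library. They held 14.2, 10.6 and 13.8% of all counts in MPTP+PF4 libraries, 9.40, 9.14 and 12.3% in MPTP libraries, and 12.8, 10.9 and 10.1% in Control libraries. The means were 12.8 ± 1.98% in MPTP+PF4, 10.3 ± 1.74% in MPTP and 11.3 ± 1.41% in Control libraries (SD, n = 3 each). Every pair of groups overlapped, and MPTP 3 alone lay above MPTP+PF4 2 among the MPTP libraries. Libraries of the same number were treated as pairs from the data alone, although the replicates were separate mice not shown to be paired. Matched in this way, the share was higher in MPTP+PF4 than in MPTP in 3 of 3 pairs. The values were 14.2 and 9.40%, 10.6 and 9.14%, and 13.8 and 12.3%. Both libraries numbered 2 held the lowest Drd1 level of their group, and whether the numbers follow tissue content was not tested. The 3 of 3 is therefore a description and no paired evidence for a difference. In bulk tissue, a change in the number of cells of a type cannot be told apart from a change in the RNA per cell.

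**Figure D1:**
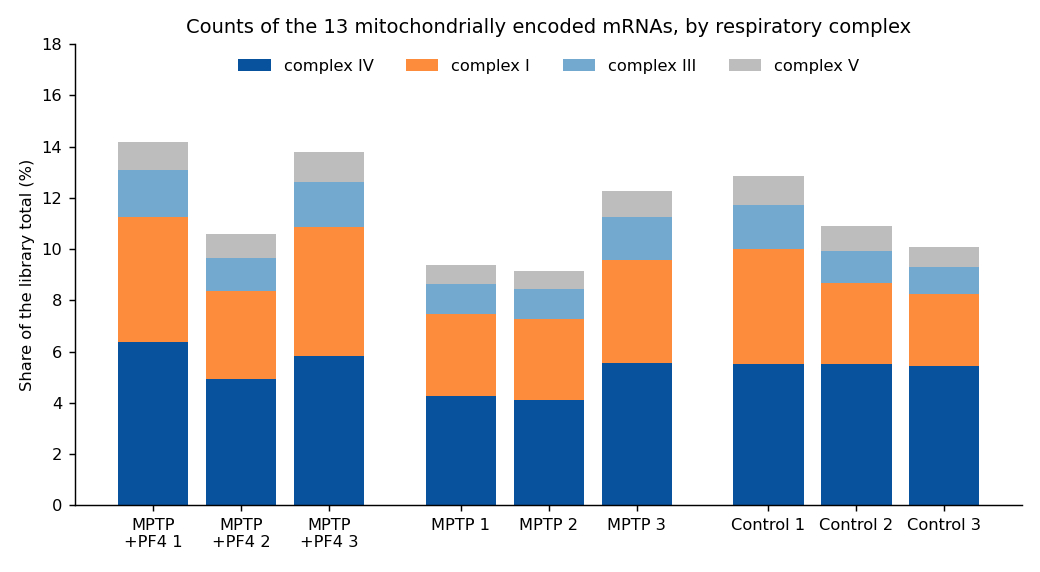
Share of each library's total counts (y axis, %) held by the 13 mitochondrially encoded messengers, stacked by respiratory complex, for 3 libraries each of MPTP+PF4, MPTP and Control (x axis). Totals run from 9.14% in MPTP 2 to 14.2% in MPTP+PF4 1, and the 3 groups overlap.

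Levels of different genes were compared per length, as the FPKM values of the deposited table. mt-Co1, which encodes the catalytic core subunit of complex IV, was the highest member in 9 of 9 libraries, with a median of 22647 FPKM. At the other end, mt-Nd3 and mt-Nd6, both complex I subunits, had medians of 1410 and 2050 FPKM. The libraries came from an mRNA kit, and the human counterpart of mt-Nd6 lacks a stable poly(A) tail. Whether the kit took up mt-Nd6 as well as the others was not tested. Between mt-Co1 and mt-Nd6 the order by median was mt-Atp6, mt-Co2, mt-Cytb, mt-Nd1, mt-Co3, mt-Nd4, mt-Atp8, mt-Nd2, mt-Nd5 and mt-Nd4l. Many neighbours in that order did not hold their places across libraries. The gene listed first was the higher one in 9 of 9 libraries for mt-Co1 over mt-Atp6, mt-Nd4 over mt-Atp8, mt-Nd2 over mt-Nd5 and mt-Nd5 over mt-Nd4l. mt-Co2 lay above mt-Cytb in only 2 of 9 libraries and mt-Atp8 above mt-Nd2 in 3 of 9, although the medians ran the other way. Each remaining neighbour pair kept its order in 7 of 9 libraries. Reading frames that share a messenger did not stand at the same level. mt-Atp8 over mt-Atp6 ran from 0.304 to 0.646 and mt-Nd4l over mt-Nd4 from 0.148 to 0.387. The order is therefore one of FPKM values and not of messenger numbers. What part the short length of mt-Atp8, mt-Nd4l and mt-Nd3 (204, 297 and 348 bases) had in it was not tested.

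**Figure D2:**
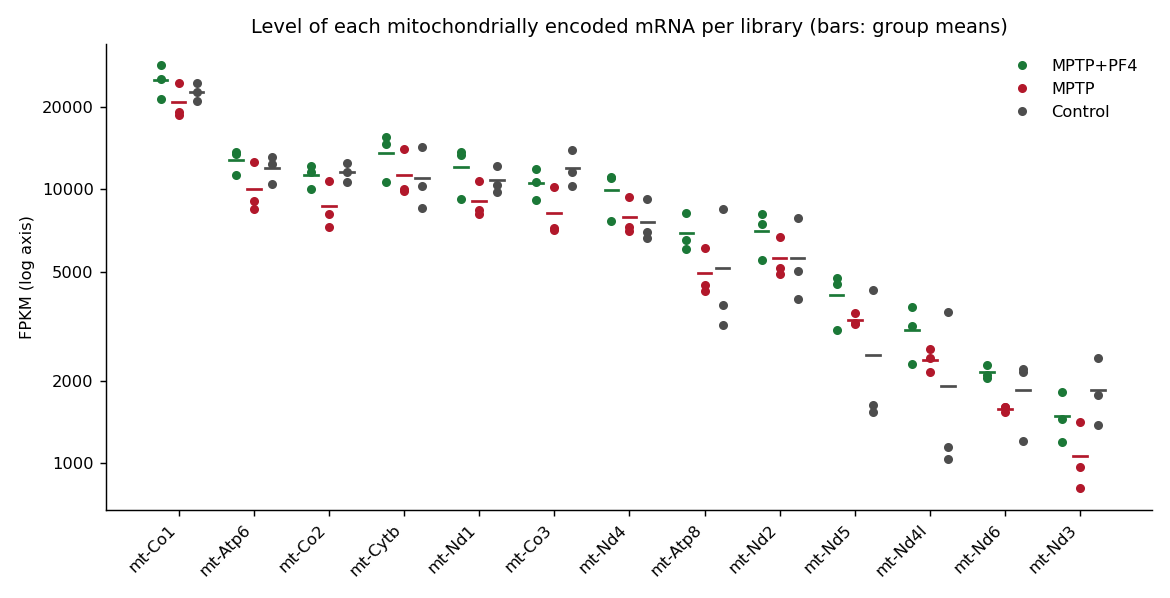
FPKM on a log axis (y axis) of each messenger (x axis, ordered by median over 9 libraries), with 1 point per library and a short bar at the mean of each group of MPTP+PF4, MPTP and Control. mt-Co1 is highest throughout, and the Control points of mt-Nd5 and mt-Nd4l split into 1 high and 2 low libraries.

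The 7 complex I messengers held 32.5 to 36.6% of the mitochondrial counts in MPTP+PF4 libraries, 32.9 to 34.8% in MPTP libraries and 34.9% in Control 1. They held 29.1 and 28.1% in Controls 2 and 3, below all 7 others. Complex I is the NADH dehydrogenase that feeds electrons into the chain, and its mitochondrial subunits form the membrane arm that pumps protons.

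mt-Nd5, a proton-pumping subunit at the far end of that arm, was at 8785, 5643 and 9828 CPM in MPTP+PF4, 5949, 5620.4 and 6821 CPM in MPTP, and 8113, 3110.1 and 3076 CPM in Control libraries. The low values were those of Controls 2 and 3, which lay below all other libraries, whereas Control 1 lay above every MPTP library. Its log2 fold change was 0.36 (SE 0.39) in MPTP against Control, 0.40 (SE 0.39) in MPTP+PF4 against MPTP and 0.76 (SE 0.39) in MPTP+PF4 against Control. mt-Nd4l, a small membrane subunit, showed the same split. It stood at 1002, 691 and 1249 CPM in MPTP+PF4, 718, 612 and 824 CPM in MPTP, and 1099, 339.6 and 354 CPM in Control libraries, again with Controls 2 and 3 lowest.

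mt-Nd3, another small membrane subunit, went the other way in those 2 libraries. Its values were 538, 419 and 716 CPM in MPTP+PF4, 338, 270.1 and 520.3 CPM in MPTP, and 497, 931 and 641 CPM in Control libraries. Control 2 held the highest of the 9 values, and the MPTP and Control groups overlapped because MPTP 3 exceeded Control 1. Its mean was 376 ± 129 CPM in MPTP and 690 ± 221 CPM in Control libraries, the largest fitted difference among the members at a log2 fold change of −0.88 (SE 0.33). That difference had an unadjusted p of 0.0263 and an adjusted p of 0.261 by edgeR's quasi-likelihood test with Benjamini-Hochberg adjustment, so it did not pass. Without Control 2 it was −0.59, and without Controls 2 and 3 and MPTP+PF4 2 it was −0.40.

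mt-Nd6, the light-strand messenger, was at 1266, 1097 and 1205 CPM in MPTP+PF4, 798, 802 and 884 CPM in MPTP, and 1191, 1239 and 647 CPM in Control libraries. All 3 MPTP+PF4 libraries lay above all 3 MPTP libraries, and the Control libraries spanned nearly the whole range, with Control 3 the lowest of the 9. The mean was 1190 ± 85.5 CPM in MPTP+PF4 and 828 ± 48.4 CPM in MPTP libraries (SD, n = 3 each), a difference of 362 CPM. An exact two-sided permutation test gave p = 0.1, the smallest value that 3 against 3 libraries allow. In the same test MPTP libraries differed by −198 CPM from the Control mean of 1026 ± 329 CPM (exact permutation p = 0.4), and MPTP+PF4 libraries by 164 CPM (exact permutation p = 0.6). Without Control 3 the last difference changed sign, to −25.7 CPM. mt-Nd6 does not share the precursor of the other 12, and its ratio to mt-Cytb, its neighbour on the opposite strand, was 0.211 and 0.141 in Controls 2 and 3 and 0.114 to 0.197 in the other 7 libraries on the FPKM scale.

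The other complex I members were mt-Nd1, mt-Nd2 and mt-Nd4, core membrane subunits like the rest. Their highest CPM over 9 libraries was 1.87, 2.24 and 1.86 times the lowest, beside 3.68 times for mt-Nd4l and 3.20 times for mt-Nd5. mt-Nd1 held the steadiest place among the members, at 8.60 to 9.74% of their counts in every library.

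mt-Cytb, the cytochrome b of complex III and the only subunit of that complex made in mitochondria, averaged 16728 ± 3875 CPM in MPTP+PF4, 13141 ± 3370.3 CPM in MPTP and 13384 ± 3500.4 CPM in Control libraries. Its log2 fold change was −0.03 (SE 0.28) in MPTP against Control and 0.35 (SE 0.28) in MPTP+PF4 against MPTP, and neither passed the test.

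Complex IV, cytochrome c oxidase, has mt-Co1, mt-Co2 and mt-Co3 as its core. Together they held 42.2 to 46.6% of the mitochondrial counts in MPTP+PF4 libraries, 44.8 to 45.3% in MPTP libraries and 43.1% in Control 1, against 50.5 and 53.8% in Controls 2 and 3. mt-Co3 was at 9909, 7209.8 and 9451 CPM in MPTP+PF4, 5699, 5339 and 8475 CPM in MPTP, and 8369.7, 12104 and 9419 CPM in Control libraries. MPTP 1 and MPTP 2 lay below every Control library, and MPTP 3 lay just above Control 1. Its log2 fold change in MPTP against Control was −0.62 (SE 0.24), with an unadjusted p of 0.0331 and an adjusted p of 0.265 by edgeR's quasi-likelihood test with Benjamini-Hochberg adjustment. It was −0.44 without Control 2 and −0.38 with the GC and length trend taken out, each with an unadjusted p above 0.05. Without Controls 2 and 3 and MPTP+PF4 2 it was −0.37. Other settings made it larger, at −0.72 without Control 1 and −0.85 without MPTP 3. Their adjusted p by the same test was 0.0807 and 0.456. mt-Co2 had a log2 fold change of −0.47 (SE 0.22) and mt-Co1 one of −0.19 (SE 0.20) in the same comparison.

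Complex V, ATP synthase, has mt-Atp6 and mt-Atp8 in its membrane part. mt-Atp6 averaged 9379 ± 1480 CPM in MPTP+PF4, 6956 ± 1904 CPM in MPTP and 8672 ± 1121 CPM in Control libraries. mt-Atp8, the shortest reading frame at 204 bases, averaged 1522 ± 341 CPM in MPTP+PF4, 1023 ± 264 CPM in MPTP and 1109.7 ± 608 CPM in Control libraries, with the lowest values in Control 3 and MPTP 2.

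The proportions among the messengers set Controls 2 and 3 apart from the other libraries. The ratio per length of mt-Nd4l to mt-Nd4, which share 1 messenger, lay between 0.279 and 0.387 in the other 7 libraries. In Controls 2 and 3 it was 0.148 and 0.173. The ratio of mt-Atp8 to mt-Atp6 split the same way, at 0.304 and 0.306 in Controls 2 and 3 and 0.485 to 0.646 in the other 7. The ratio of mt-Nd5 to mt-Nd3 was 0.638 and 0.915 in Controls 2 and 3 and 2.50 to 3.97 elsewhere. In each of these ratios Control 1 lay on the side of the MPTP and MPTP+PF4 libraries, and so did MPTP+PF4 2, the other library with Slc6a3 transcripts. Control 1 itself had the highest mt-Nd4l to mt-Nd4 ratio (0.387) and the highest mt-Atp8 to mt-Atp6 ratio (0.646). The next highest were 0.334 and 0.599, both in MPTP+PF4 3. Its mt-Nd5 to mt-Nd3 ratio, at 3.11, lay within the range of the MPTP and MPTP+PF4 libraries. These splits were seen in the values and have no test. The ratios set reading frames of unlike length against each other, and the length trend of Controls 2 and 3 was not taken out of them.

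**Figure D3:**
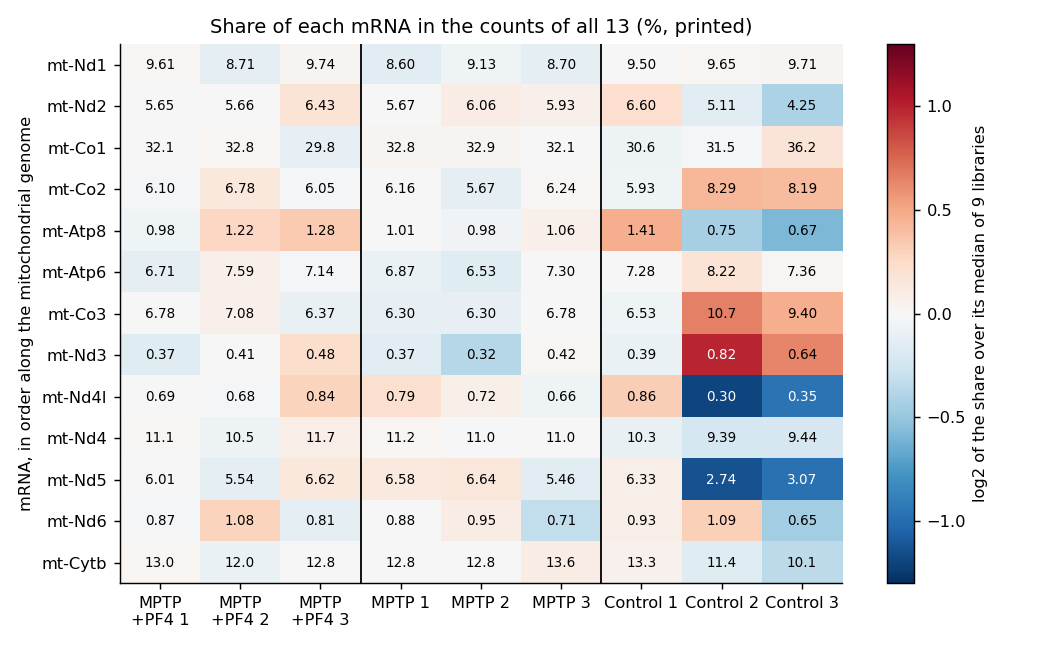
Share of each messenger in the counts of all 13 (printed, %), for 9 libraries (columns: MPTP+PF4, MPTP, Control) and 13 genes in order along the mitochondrial genome (rows), coloured by the log2 of the share over its median of 9 libraries. Controls 2 and 3 stand apart, with mt-Nd5 at 2.74 and 3.07% beside 5.46 to 6.64% elsewhere and mt-Co3 at 10.7 and 9.40% beside 6.30 to 7.08%.

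**Figure D4:**
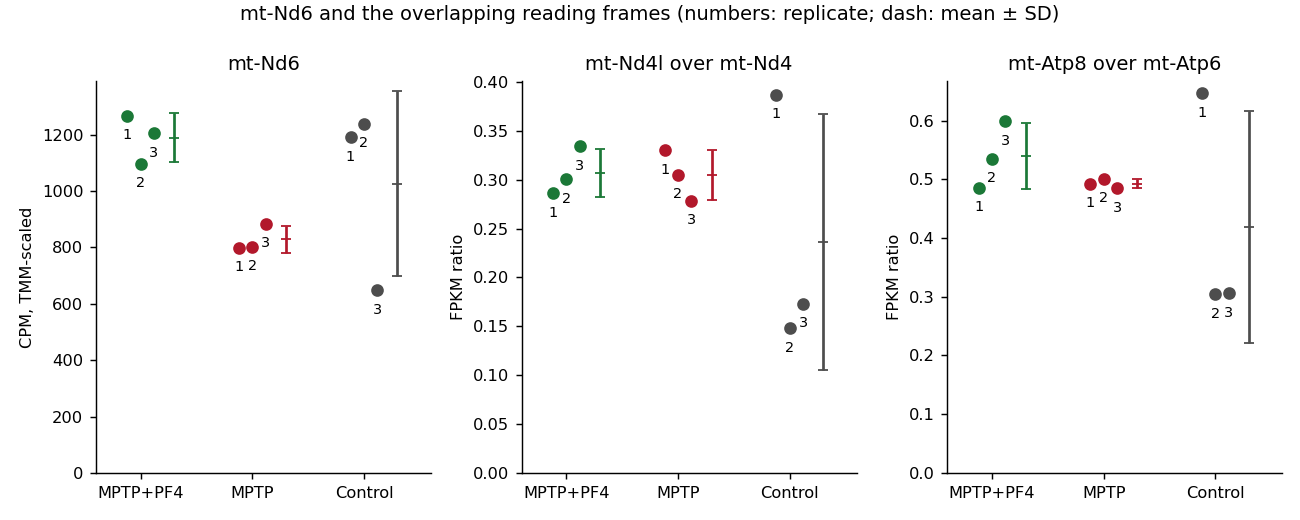
Left, TMM-scaled CPM of mt-Nd6 in each library; middle and right, FPKM ratios of the reading frames that share a messenger (y axes), by group (x axes: MPTP+PF4, MPTP, Control), with the replicate number under each point and the mean ± SD beside it (n = 3). mt-Nd6 in MPTP+PF4 libraries lies above MPTP libraries without overlap, and the ratios of Controls 2 and 3 lie below all other libraries.

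MPTP against Control was the comparison that asks what the toxin course alone did. Of the 13 members, 11 had a fold change below 0, where 49.1% of all genes did, and 2 above it (mt-Nd5 and mt-Nd4l), where 50.9% did, with a median log2 fold change of −0.19 beside 0.013 over all 17285 genes tested. None passed an adjusted p of 0.05 in edgeR's quasi-likelihood test with Benjamini-Hochberg adjustment, nor did any other gene (0.00% of genes called). At an unadjusted p under 0.05, 2 members were lower (mt-Nd3 and mt-Co3) and 0 higher, where 12.9% of all genes were lower and 5.32% higher, 3155 genes in all. That share of members is near the background. No member had groups that did not overlap, beside 9.19% of all genes with every MPTP library below and 9.01% with every MPTP library above the Controls. DESeq2 called 0 members and 289 genes, and limma voom with sample weights called 5 members (3 lower, 2 higher) and 8943 genes (51.7%), with a members' median of 0.20, on the other side of 0. The count of calls depended on Control 1. Without it, edgeR's quasi-likelihood test with Benjamini-Hochberg adjustment called 4577 genes (25.8%), and mt-Nd4l was higher in MPTP by a log2 fold change of 1.06 (SE 0.27, adjusted p = 0.0277) and mt-Nd5 by 0.99 (SE 0.26, adjusted p = 0.0299). With Control 1 as the only Control library (MPTP+PF4 2 also left out), a lone library assumed to vary like the other groups, the members' median was −0.41, none lay above 0, mt-Nd5 was at −0.41 and mt-Nd4l at −0.62, so the direction of both genes depended on which Control libraries were used. With a trend on GC content and length taken out, the median was −0.13. Markers of other cell types differed between these groups as well. All 7 mature oligodendrocyte markers had fold changes below 0 (median −1.14), with a summed level of 6980.2 to 14614 CPM in MPTP and 15206 to 25804 CPM in Control libraries and none at 0. Of 8 dopamine neuron markers, 7 had fold changes below 0 (median −4.63), with a summed level of 44.6 to 74.8 CPM in MPTP and 44.1 to 1270 CPM in Control libraries. Control 1 had the 44.1 CPM, and Controls 2 and 3 were at 1270 and 1194 CPM. In each MPTP library 1 of the 8 was at 0 (Foxa1 or Pitx3), and in Control 1 it was En1. Their part in the members' values was not tested.

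MPTP+PF4 against MPTP was the comparison that asks what PF4 added, and it shares its MPTP libraries with the one before. All 13 members had a fold change above 0, where 53.4% of all genes did, and their log2 fold changes fell within a narrow range of 0.35 to 0.57 with a median of 0.45 beside 0.016 over all genes. The highest was mt-Atp8, at 0.57 (SE 0.37), and the lowest mt-Cytb, at 0.35 (SE 0.28). None passed edgeR's quasi-likelihood test with Benjamini-Hochberg adjustment (adjusted p = 1.00 for each, 0.00% of genes called), and none had an unadjusted p under 0.05, where 0.648% of all genes were higher and 1.36% lower, 347 genes in all. DESeq2 and limma voom with sample weights called 0 members (0.0116% of genes called by voom). The unadjusted count depended on the setting: voom put 12 members higher at an unadjusted p under 0.05, where 9.47% of all genes passed in either direction. In edgeR the count was 6 without MPTP 3 (1.82% of genes) and 8 without Controls 2 and 3 and MPTP+PF4 2 (4.93% of genes), all higher, and 0 to 2 in each of the other settings tried. mt-Nd6 was the 1 member whose groups did not overlap, as in 3.04% of all genes in that direction, beside 4.07% in the other. The members share precursors and take 9.14 to 14.2% of each library, so their common direction is not 13 separate observations. The fold change stayed above 0 for every member in each alternative processing that was tried, and the median ran from 0.31 to 0.62 over all of them. It was 0.34 with the GC and length trend taken out. Markers of other cell types differed in the same comparison: all 7 mature oligodendrocyte markers had fold changes above 0 (median 0.32, summed level 12419 to 13428 CPM in MPTP+PF4 and 6980.2 to 14614 CPM in MPTP libraries, none at 0). All 6 ependymal and choroid plexus markers had fold changes below 0 (median −2.34, summed level 44.7 to 132 CPM in MPTP+PF4 and 61.7 to 3078 CPM in MPTP libraries, none at 0). The 3078 CPM was that of MPTP 1 alone, whereas MPTP 2 and 3, at 61.7 and 103 CPM, lay within the MPTP+PF4 range. All 8 dopamine neuron markers had fold changes above 0 (median 1.32, summed level 49.1 to 357 CPM in MPTP+PF4 and 44.6 to 74.8 CPM in MPTP libraries). Only MPTP+PF4 2 had the 357 CPM, whereas MPTP+PF4 1 and 3, at 49.1 and 50.8 CPM, lay within the MPTP range. En1, Foxa1 and Pitx3 were at 0 in MPTP+PF4 1 and 3. Their part in the members' values was not tested.

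MPTP+PF4 against Control compared the treated toxin animals with saline animals. It shares its Control libraries with the first comparison and its MPTP+PF4 libraries with the second. Of the members, 10 had a fold change above 0, where 49.8% of all genes did, and 3 below it, where 50.2% did: mt-Nd3 at −0.31, mt-Co3 at −0.17 and mt-Co2 at −0.02. The median was 0.21 beside −0.0044 over all genes, and the highest were mt-Nd5 at 0.76 and mt-Nd4l at 0.71 (SE 0.45). None was called by edgeR's quasi-likelihood test with Benjamini-Hochberg adjustment (0.00% of genes called, smallest adjusted p among members 0.295) or by DESeq2, whereas limma voom with sample weights called 8, all higher, among 54.4% of all genes. None had an unadjusted p under 0.05, where 6.25% of all genes were higher and 12.1% lower, 3171 genes in all. No member had groups that did not overlap, beside 5.62% of genes higher and 6.78% lower. Without Control 1, 4539 genes (25.6%) were called by edgeR's quasi-likelihood test with Benjamini-Hochberg adjustment. Among them were mt-Nd4l at 1.51 (SE 0.28, adjusted p = 0.0126), mt-Nd5 at 1.39 (SE 0.27, adjusted p = 0.0134) and mt-Atp8 at 1.00 (SE 0.29, adjusted p = 0.0387). With Control 1 as the only Control library, the fold changes were 0.20 for mt-Nd5, 0.035 for mt-Nd4l and −0.12 for mt-Atp8. Markers of other cell types differed here too. Fold changes were below 0 for 7 of 7 mature oligodendrocyte markers (median −0.73, summed level 12419 to 13428 CPM in MPTP+PF4 and 15206 to 25804 CPM in Control libraries) and 5 of 5 haemoglobin genes (median −3.42), none of them at 0. They were below 0 for 7 of 8 dopamine neuron markers (median −2.37, summed level 49.1 to 357 CPM in MPTP+PF4 and 44.1 to 1270 CPM in Control libraries). Only MPTP+PF4 2 had the 357 CPM, and only Control 1 the 44.1 CPM. All 9 striatal projection neuron markers had fold changes above 0 (median 1.56, summed level 332 to 8305 CPM in MPTP+PF4 and 210.1 to 3931 CPM in Control libraries, none at 0). The 332 CPM was that of MPTP+PF4 2 alone, beside 5664 and 8305 CPM in MPTP+PF4 1 and 3. Control 1 alone had the 3931 CPM, beside 246 and 210.1 CPM in Controls 2 and 3. Their part in the members' values was not tested.

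The authors' deposited table called 0 of the 13 members in any of its comparisons, at a p of 0.05 and a fold of 2 per the file headers. Over all genes the authors' deposited table held 314 up and 864 down calls for MPTP and Control, 30 and 176 for MPTP+PF4 and MPTP, and 700 and 242 for MPTP+PF4 and Control, in a direction that the headers do not spell out. No member reached a fold of 2 in the edgeR fit on all 9 libraries.

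**Figure D5:**
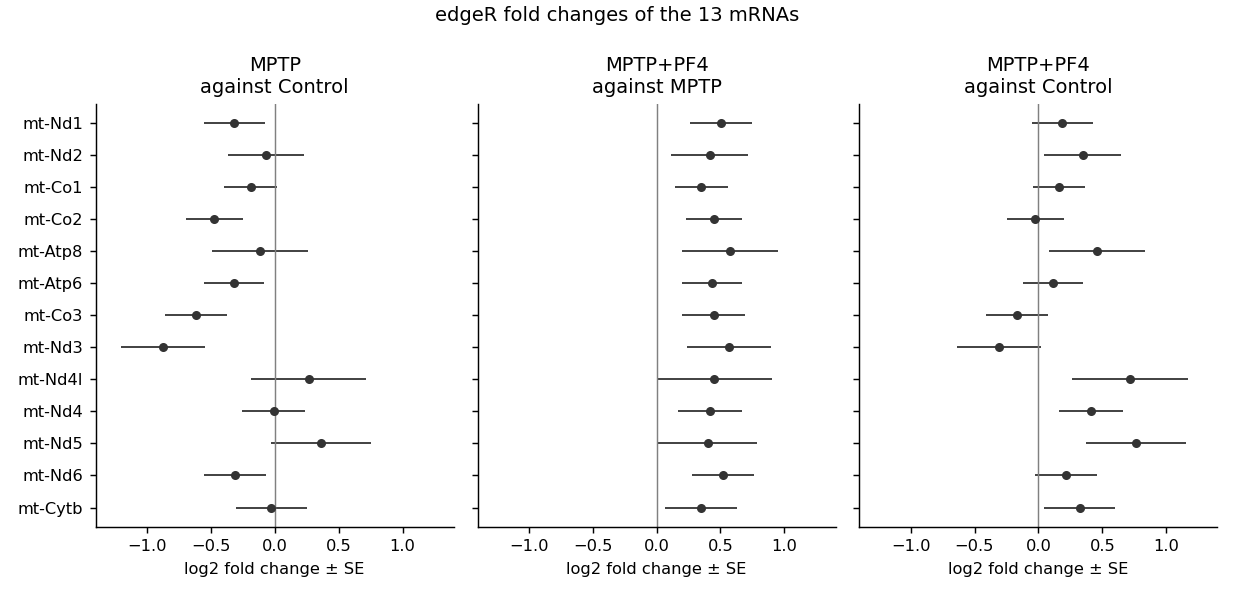
Log2 fold change with its standard error (x axis) from the edgeR fit on 3 libraries per group, for the 13 messengers in order along the mitochondrial genome (y axis), in 3 comparisons. In MPTP+PF4 against MPTP every gene lies between 0.35 and 0.57, and in MPTP against Control they run from −0.88 for mt-Nd3 to 0.36 for mt-Nd5.

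The respiratory complexes join these messengers to a far larger number of nuclear-encoded subunits, so both parts were set side by side. In all libraries the 78 nuclear subunits of complexes I, III, IV and V held less than the 13 mitochondrial messengers. They held 0.944, 1.04 and 0.775% of counts in MPTP+PF4 libraries, 0.871, 0.963 and 0.931% in MPTP libraries, and 0.960, 1.80 and 1.26% in Control libraries. Controls 2 and 3 were the highest, and Control 1 lay within the range of the MPTP libraries. Counts of the mitochondrial messengers were 15.0, 10.2 and 17.8 times those of the nuclear subunits in MPTP+PF4, 10.8, 9.49 and 13.2 times in MPTP, and 13.4, 6.07 and 8.01 times in Control libraries. The groups overlapped in this ratio, with Controls 2 and 3 below the rest.

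In MPTP against Control the nuclear subunits had lower medians than the mitochondrial messengers, though none passed the adjusted threshold of edgeR's quasi-likelihood test with Benjamini-Hochberg adjustment. At an unadjusted p under 0.05, 23 of 36 complex I, 4 of 9 complex III, 12 of 15 complex IV and 12 of 18 complex V genes were lower and 0 higher, beside 12.9% of all genes lower. Their median log2 fold changes were −0.79, −0.54, −1.02 and −0.74. Examples were Ndufs6 of complex I at −1.50 (SE 0.43), Uqcrq of complex III at −1.51 (SE 0.42), Cox4i1 of complex IV at −1.34 (SE 0.39) and Atp5e of complex V at −1.76 (SE 0.51). Control 1 lay within the MPTP range for Cox4i1 (439 CPM, MPTP 366 to 441) and Atp5e (30.9 CPM, MPTP 30.4 to 33.9). It lay just above that range for Ndufs6 and Uqcrq. In MPTP+PF4 against MPTP the same lists had 0 genes at an unadjusted p under 0.05 in either direction, and medians of 0.056, 0.027, 0.18 and 0.10, beside 0.45 for the mitochondrial messengers. In MPTP+PF4 against Control the numbers lower were 19, 4, 7 and 8, with 0 higher, beside 12.1% and 6.25% of all genes. The difference between nuclear and mitochondrial members was not tested.

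Genes that read out the mitochondrial genome were followed from lists of known factors, and none was called in any comparison by edgeR's quasi-likelihood test with Benjamini-Hochberg adjustment. The counts that follow stand beside 5.32% of all genes higher and 12.9% lower in MPTP against Control. Among 10 genes of mitochondrial transcription, 1 was higher and 1 lower in MPTP against Control at an unadjusted p under 0.05: Mterf3, a repressor of mitochondrial transcription, averaged 23.0 ± 0.215 CPM in MPTP and 14.7 ± 5.73 CPM in Control libraries (log2 fold change 0.65, SE 0.26). Mterf4, which targets a methyltransferase to the mitochondrial ribosome, averaged 11.9 ± 1.53 CPM in MPTP and 19.0 ± 7.48 CPM in Control libraries (−0.68, SE 0.27). In Controls 1, 2 and 3, Mterf3 was at 21.1, 10.1 and 12.9 CPM and Mterf4 at 15.3, 27.7 and 14.2 CPM. Among 13 genes that maintain mitochondrial DNA, 3 were lower and 0 higher, with Tk2, the mitochondrial thymidine kinase, at −0.79 (SE 0.28) and the mitochondrial topoisomerase Top1mt averaging 9.05 ± 1.99 CPM in MPTP and 18.1 ± 8.95 CPM in Control libraries. Top1mt was at 8.88 CPM in Control 1, within the 7.80 to 11.4 CPM of the MPTP libraries, and at 18.7 and 26.8 CPM in Controls 2 and 3. Tk2 likewise had Control 1, at 37.7 CPM, within the 29.8 to 43.2 CPM of the MPTP libraries. Of 24 RNA processing and stability genes, 2 were higher and 4 lower. Trmt10c, a subunit of the RNase P that cuts the precursors at transfer RNAs, was at 0.55 (SE 0.20), and Trmu, a transfer RNA modifying enzyme, at −1.02 (SE 0.38).

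Downstream of the messengers, 0 of 12 translation factors were higher and 3 lower in MPTP against Control at an unadjusted p under 0.05. The initiation factor Mtif3 was at −0.52 (SE 0.18) and the elongation factor Tsfm at −0.83 (SE 0.34). Of 78 mitochondrial ribosomal proteins 36 were lower and 0 higher (median −0.51), with Mrps34 at −1.73 (SE 0.45) and Mrpl46 at −1.32 (SE 0.38). The summed level of these ribosomal proteins was 1904 to 2305 CPM in MPTP+PF4, 1986 to 2229 CPM in MPTP, 2217 CPM in Control 1, and 3915 and 3104 CPM in Controls 2 and 3. Control 1 thus lay within the range of both other groups. Among 14 regulators of mitochondrial biogenesis 2 were higher and 1 lower. They included Prkaa2, a catalytic subunit of AMP-activated kinase, at 0.51 (SE 0.21), and the orphan receptor gene Esrrb at −1.62 (SE 0.40). Of 15 outer membrane and matrix genes, taken as a readout of mitochondrial content, 0 were higher and 2 lower, with the import receptor gene Tomm22 at −0.89 (SE 0.28) and Ogdh of the citric acid cycle at −0.49 (SE 0.18). Control 1 lay within the MPTP range for Tsfm (10.8 CPM, MPTP 10.2 to 13.2), Prkaa2 (32.6 CPM, MPTP 31.6 to 38.8) and Tomm22 (51.7 CPM, MPTP 46.7 to 54.0). For Mtif3, Mrps34, Mrpl46, Esrrb and Ogdh it lay outside that range, on the side of Controls 2 and 3. It was still nearer the highest MPTP library than Controls 2 and 3 for all of these but Esrrb. Mrps34 was at 19.7 CPM in Control 1, with MPTP up to 16.4 CPM and Controls 2 and 3 at 82.9 and 49.98 CPM. Mrpl46 was at 21.4 CPM, with MPTP up to 20.7 CPM and Controls 2 and 3 at 70.5 and 51.4 CPM. Esrrb was at 4.29 CPM, with MPTP up to 2.30 CPM and Controls 2 and 3 at 6.90 and 5.98 CPM.

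In MPTP+PF4 against MPTP, 0 genes of these 7 lists had an unadjusted p under 0.05, and the list medians lay between −0.014 for the translation factors and 0.084 for the biogenesis regulators. The outer membrane and matrix genes had a median of 0.024, and their summed level was 4581 to 4861 CPM in MPTP+PF4, 4296 to 4814 CPM in MPTP and 4495 to 4980.3 CPM in Control libraries. In MPTP+PF4 against Control, 35 of the 78 ribosomal proteins were lower and 0 higher at an unadjusted p under 0.05, beside 12.1% and 6.25% of all genes. Of the biogenesis regulators, 5 were higher and 1 lower.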

How the data were processed

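Per the labels' protocols, libraries were made from 1 µg of midbrain total RNA with an mRNA kit. Per the file headers, the deposited table gives each gene a count and an FPKM value in every library. It also carries calls by the authors (up, down or normal), given here for the 13 members and as counts over all genes. No source used here names the aligner, the counting program or the strand setting. The build mm9 comes from the submitters' processing notes. Of 29001 lines, 10 that did not hold a whole record were left out.

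The counts were tested with edgeR 4.0.16 (filterByExpr, TMM factors, robust quasi-likelihood fit on all 9 libraries, Benjamini-Hochberg over 17285 genes, threshold 0.05), which was tested on simulated data first. CPM values are TMM-scaled. All 13 members passed the filter. Alternatives used DESeq2 1.42.0 and limma 3.58.1. Unadjusted p-values are printed as descriptions. Positions and sequences came from GENCODE (GRCm38) by gene identifier, and 22022 of 22036 Ensembl identifiers matched. Reads from near-identical nuclear copies of mitochondrial DNA cannot be told apart from the members' own.

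Replicates were separate mice per the series design. No library was a repeat of another (chi-square over its degrees of freedom was at least 30.0 for each pair of replicates). Same-numbered libraries correlated at 0.11 to 0.58 between MPTP+PF4 and MPTP. From the data alone, the numbers were treated as pairs in describing the members' share and as a block in an alternative fit. The main edgeR fit and the permutation test used no pairing. Different-numbered libraries of these groups correlated at −0.61 to 0.39, so the ranges overlap and do not show that the numbers pair animals. With Control, same-numbered libraries correlated at −0.15 to 0.19 for MPTP and −0.33 to 0.42 for MPTP+PF4. Members, gene lists and named genes (mt-Nd6, all other members, and from each list the 2 genes with the smallest p in MPTP against Control, of which some are printed) were chosen with earlier results of these data known.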

Additional observations from a re-analysis of the deposited data

How the results depend on the processing

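With limma voom and sample weights, 8943 genes and 5 members were called in MPTP against Control, 2 genes in MPTP+PF4 against MPTP, and 9395 genes and 8 members in MPTP+PF4 against Control. The members' median log2 fold changes were then 0.20 in the first comparison, where the sign turned, and 0.71 in the last. The weights ran from 0.202 for Control 1 to 5.26 for Control 3. DESeq2 called 289, 17 and 9 genes in the 3 comparisons, in the same order, and 0 members. Without Controls 2 and 3 and MPTP+PF4 2, edgeR called 1 gene in each comparison with Control, whose lone library was assumed to vary like the other groups.

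Leaving out each library in turn gave 0 to 4577 called genes and 0 to 2 called members in MPTP against Control, 0 and 0 in MPTP+PF4 against MPTP, and 0 to 4539 genes and 0 to 3 members in MPTP+PF4 against Control, the highest counts without Control 1. The members' medians ran from −0.37 to −0.06, from 0.31 to 0.62 and from 0.14 to 0.39. The difference of mt-Nd6 ran from −387 to −91.4, from 323 to 408 and from −25.7 to 270.2 CPM, and that of the members' share of the library from −2.01 to −0.229, from 1.90 to 3.71 and from 0.897 to 2.70 percentage points.

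With the replicate number as a block, the pairing changed no call: 0 genes and 0 members were called in each comparison, and the members' medians were −0.20, 0.44 and 0.24. Over single members and settings, the sign of the fold change differed in 32 of 286 cases in MPTP against Control, 0 of 286 in MPTP+PF4 against MPTP and 12 of 286 in MPTP+PF4 against Control. For the members' share, messenger RNAs only was no separate setting, since all members are messengers. The mt-Nd6 difference on a total without the members was added after the data were seen and kept its direction. Each member held at least 9875 counts in every library.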
